A study of Rattus norvegicus with 27 samples.

Results

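The genes described here are 41 genes of the lysosome and of autophagy, matched by name in a table of 17315 genes measured in rat Schwann cells. They comprise 32 lysosome genes (8 proteases, 12 glycosidases and lipid hydrolases, 7 membrane and lipid export genes, 3 subunits of the proton pump and 2 transcription factors) and 9 autophagy genes. Psap, the precursor of the saposins and no hydrolase itself, is counted with the glycosidases and lipid hydrolases. All 41 were found in the table, and both classes are read apart. Messenger RNA was sequenced from commercially bought primary rat Schwann cells at passages 3 to 5, in 3 stages of 3 biological replicates each. Undifferentiated cells were controls kept without db-cAMP (dibutyryl cyclic AMP, a cyclic AMP analogue that enters cells), and the labels say no more about their medium at harvest. Differentiated cells had 1 mM db-cAMP for 72 h in DMEM with 1% exosome-depleted serum. Dedifferentiated cells had the same 72 h of db-cAMP and then 72 h in complete medium, which per the labels held 10% exosome-depleted serum, forskolin and 10 ng/mL neuregulin. Effects of db-cAMP, its removal, serum, forskolin, neuregulin and the further 72 h in culture therefore cannot be told apart in these stages. The labels name no axons in the cultures and do not say how many donor animals the cells came from, so p-values measure the spread between these cultures.

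Lysosomes are acid compartments in which hydrolases break down proteins, glycans and lipids that arrive by endocytosis or by autophagy, the process that wraps cell contents in a membrane and fuses it with the lysosome. After nerve injury, Schwann cells lose their myelinating state and digest their own myelin partly by autophagy, and recruited macrophages clear much of the rest. TFEB and TFE3 are related transcription factors that bind the CLEAR element, an E-box with fixed flanks found near the start of many lysosome genes, and their activity is set largely by whether they enter the nucleus.

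Because the results below concern genes that are known targets of such a factor and the factors themselves, the start regions of 5 members are shown first. They were chosen, after the search, among the 6 members whose RefSeq promoter window holds the 8-base motif. The other of these, Atp6v0d1, is not shown, and its change is given below with theirs. Each runs 5′ to 3′ on the gene's strand from 200 bases before the RefSeq start to 20 bases from the start on, in assembly GRCr8, with every CACGTG core in capitals. Lamp1 encodes an abundant glycoprotein of the lysosomal membrane (chr16:83075044-83075263, minus strand), Cln3 a membrane protein lost in a juvenile form of Batten disease (chr1:190597910-190598129, minus strand), Mcoln1 the lysosomal calcium channel TRPML1 (chr12:6358058-6358277, plus strand), Galc the enzyme that degrades the myelin lipid galactosylceramide (chr6:123245540-123245759, minus strand) and Ctsd the aspartic protease cathepsin D (chr1:206968802-206969021, minus strand).
Lamp1: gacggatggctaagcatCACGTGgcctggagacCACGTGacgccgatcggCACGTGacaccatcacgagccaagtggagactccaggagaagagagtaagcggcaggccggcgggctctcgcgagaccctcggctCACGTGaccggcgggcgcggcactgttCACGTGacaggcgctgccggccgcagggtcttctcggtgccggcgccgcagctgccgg
Cln3: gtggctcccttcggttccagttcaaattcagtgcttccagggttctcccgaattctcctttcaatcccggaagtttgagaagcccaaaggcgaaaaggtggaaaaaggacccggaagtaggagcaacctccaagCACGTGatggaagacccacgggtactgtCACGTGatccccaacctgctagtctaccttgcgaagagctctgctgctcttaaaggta
Mcoln1: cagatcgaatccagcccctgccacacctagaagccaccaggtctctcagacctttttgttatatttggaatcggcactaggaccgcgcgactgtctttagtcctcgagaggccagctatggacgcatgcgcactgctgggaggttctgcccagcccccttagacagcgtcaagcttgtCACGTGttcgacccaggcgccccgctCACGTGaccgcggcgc
Galc: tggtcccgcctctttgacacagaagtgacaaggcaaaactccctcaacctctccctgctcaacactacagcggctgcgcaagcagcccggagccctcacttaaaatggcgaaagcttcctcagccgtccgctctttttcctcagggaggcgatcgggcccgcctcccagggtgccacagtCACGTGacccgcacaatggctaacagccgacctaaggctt
Ctsd: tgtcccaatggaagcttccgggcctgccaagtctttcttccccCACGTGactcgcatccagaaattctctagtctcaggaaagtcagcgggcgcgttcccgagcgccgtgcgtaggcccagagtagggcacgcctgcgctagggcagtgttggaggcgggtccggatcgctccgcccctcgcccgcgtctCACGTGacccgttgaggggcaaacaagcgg

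RefSeq windows of 300 bases, from 250 bases before to 50 bases after the start, were found for 33 of the 41 members. Arsa, Asah1, Atp6v1h, Becn1, Ctsb, Hexa, Map1lc3a and Psap had no window in the table. The 8-base motif TCACGTGA, searched on both strands and identical on both, was in 6 of 26 lysosome windows (23.1%), those of Lamp1, Cln3, Mcoln1, Galc, Ctsd and Atp6v0d1, and in 0 of 7 autophagy windows. The same motif was in 0.777% of all 33469 windows of that length and in 1.65% of the 8353 windows of genes tested here. Its 6-base core CACGTG, which every 8-base match contains, was in 8 of 26 lysosome windows (30.8%) and 1 of 7 autophagy windows (Atg5), against 6.42% of all windows and 9.29% of those of tested genes. A longer, 10-base form of the motif, with 1 more base fixed on each side, was in the Galc window alone among the members, in 0.233% of all windows and in 0.515% of those of tested genes. In Lamp1 the core occurred 5 times, at 183, 167, 150, 65 and 38 bases before the start, and the matches at 65 and 38 bases lay within the 8-base motif. A match is a string of letters and no measurement of binding. Among the 6 members with the 8-base motif, the log2 change from undifferentiated to differentiated cells was 0.34 for Lamp1, 1.38 for Cln3, 0.60 for Mcoln1 and 0.58 for Galc, each called higher by edgeR. The change was 0.04 for Ctsd and −0.12 for Atp6v0d1, neither of them called. Among members with the 6-base core alone, it was 0.57 for Gaa, −0.80 for Glb1 and 0.02 for Atg5. Of all tested genes 31.7% were called higher in that comparison, as were 16 of the 31 tested lysosome members. Whether the motif goes with a change was not tested.

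**Figure D1:**
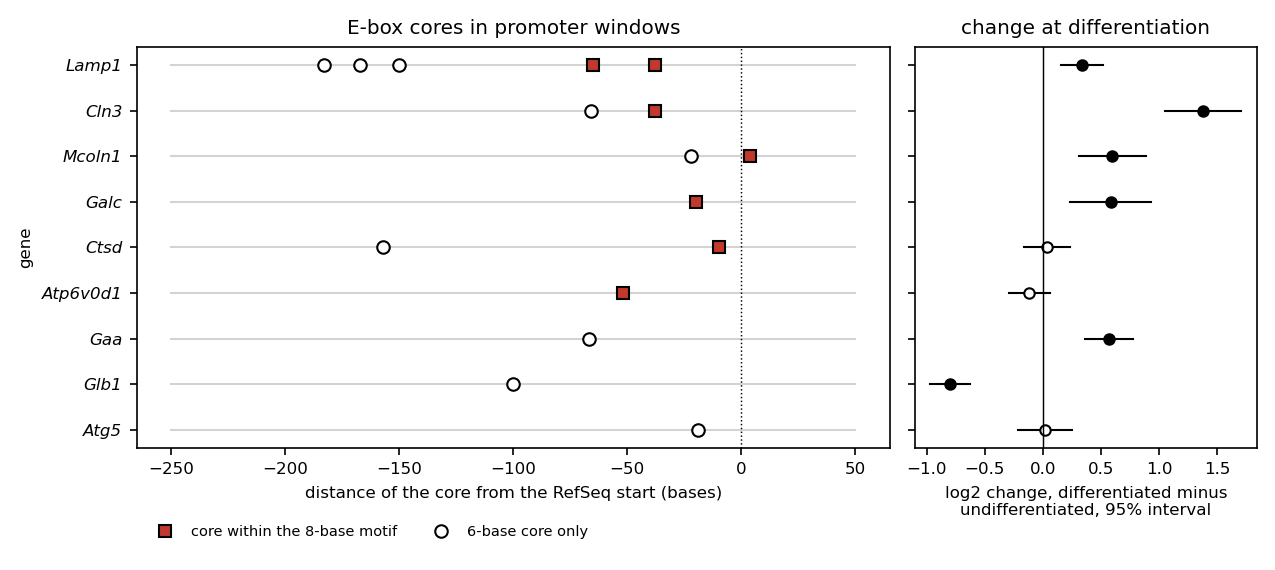
Left, positions of CACGTG cores relative to the RefSeq start in the 9 member windows that hold one (x axis, bases; red squares lie within the 8-base motif, open circles do not). Right, the log2 change of the same genes in differentiated against undifferentiated cells with its 95% interval (filled, called at an edgeR adjusted p under 0.05); genes with the 8-base motif lie between −0.12 (Atp6v0d1) and 1.38 (Cln3).

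The libraries held 10058735 to 16212278 assigned counts, so that 3 counts, the smallest level read here as present, equal 0.185 to 0.298 CPM, the unit in which each count is scaled to its library's total. Levels below are such CPM values, and changes are log2 ratios between stages after TMM scaling, from edgeR's quasi-likelihood test with Benjamini-Hochberg adjustment over 10372 tested genes; "called" means an adjusted p under 0.05. Replicate 3 of every stage was sequenced in a second project. All 62 calls made on members had the same direction in the second project, with 1 library a stage, as in the first. These libraries were all in the fit that made the calls, so that agreement was largely built in and is no independent check. Within the first project alone, with 2 libraries a stage, 34 of the 62 also passed the test. Undifferentiated replicate 1 was the lowest library of its stage for 28 of 40 tested members (70%), against 47.3% of all tested genes, and its part in the results was not tested beyond leaving it out. Of the Schwann cell markers, Gap43 was nearly absent from differentiated cells (0.276 CPM) and the others were present in every library: Sox10, a transcription factor of the lineage, stood at 1339 ± 123, 1045 ± 74.7 and 1458 ± 116 CPM in undifferentiated, differentiated and dedifferentiated cells. Of 12 macrophage markers, 6 (Aif1, Adgre1, C1qa, C1qb, C1qc and Cx3cr1) were at 0 in every library, and the list summed to 0.081 to 1.87 CPM, of which Csf1r made 0, 0.71 and 0.72 CPM in undifferentiated, differentiated and dedifferentiated cells. Endothelial markers summed to 1.21 to 8.26 CPM. Fibroblast markers summed to 26138 ± 2554, 13955 ± 1862 and 17285 ± 1818 CPM, almost wholly from collagen genes that Schwann cells also express, and neuron markers to 182 ± 107, 1128 ± 185 and 255 ± 50 CPM, mostly from Nefl. The part of such cells in the results below was not tested, and in bulk RNA fewer cells of a kind and less RNA per cell cannot be told apart.

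In differentiated cells, 16 of 31 tested lysosome members were called higher and 6 lower than in undifferentiated cells, where 31.7% of all tested genes were called higher and 27.9% lower (59.6% in either direction). The median lysosome member changed by 0.34 on the log2 scale, and the median of all tested genes by 0.05. Of the 9 autophagy members, 2 were called higher and 2 lower, with a median of 0.13. From differentiated to dedifferentiated cells, 7 lysosome members were called higher and 8 lower, against 23.2% and 23.2% of all tested genes (46.4% in either direction), with a median of −0.03. Autophagy members split 2 higher and 2 lower there, with a median of −0.03 beside −0.01 for all genes. Dedifferentiated cells differed from undifferentiated cells in 11 lysosome members called higher and 3 called lower, against 16.1% and 13.3% of all tested genes (29.4% in either direction), with a median of 0.20 beside 0.02. Of the autophagy members, 2 were called higher and 1 lower in that comparison, with a median of −0.01. Libraries of the 2 stages did not overlap, in the same order, in 19 lysosome members higher and 6 lower (all genes: 38.9% and 27.4%), in 7 and 11 (28.3% and 30.2%) and in 17 and 3 (26.8% and 17.1%). The 3 comparisons share libraries, so each is given by its own values.

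**Figure D2:**
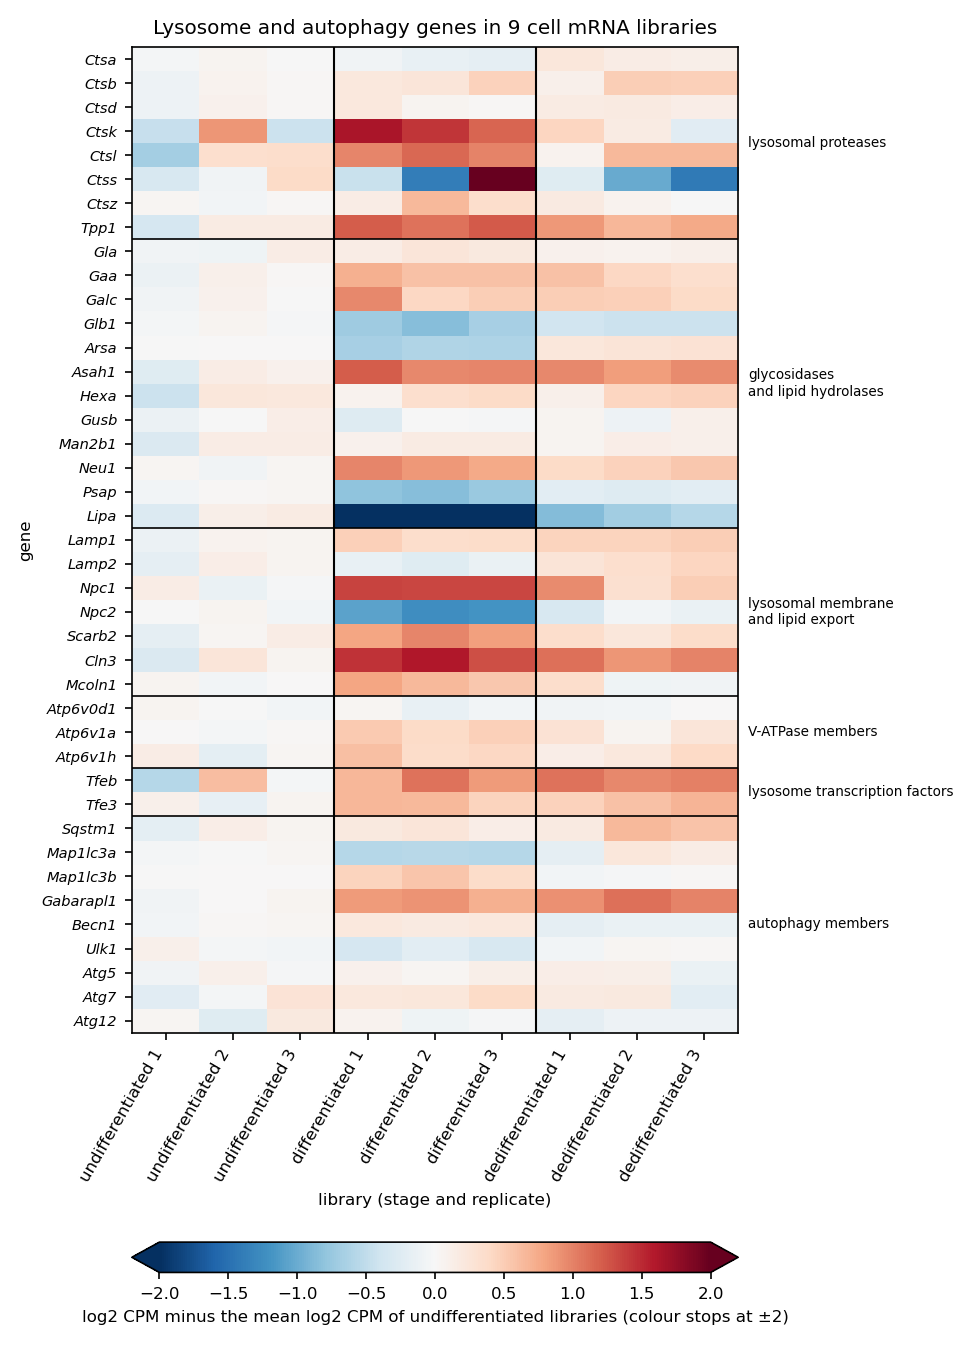
Each row is one of the 41 genes and each column one of the 9 libraries; colour is log2 CPM minus the mean log2 CPM of the undifferentiated libraries, and colours stop at 2 in either direction. Lipa is far lower in the 3 differentiated libraries than in the others, and Cln3, Npc1, Tpp1 and Asah1 are higher there than in undifferentiated libraries.

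**Figure D3:**
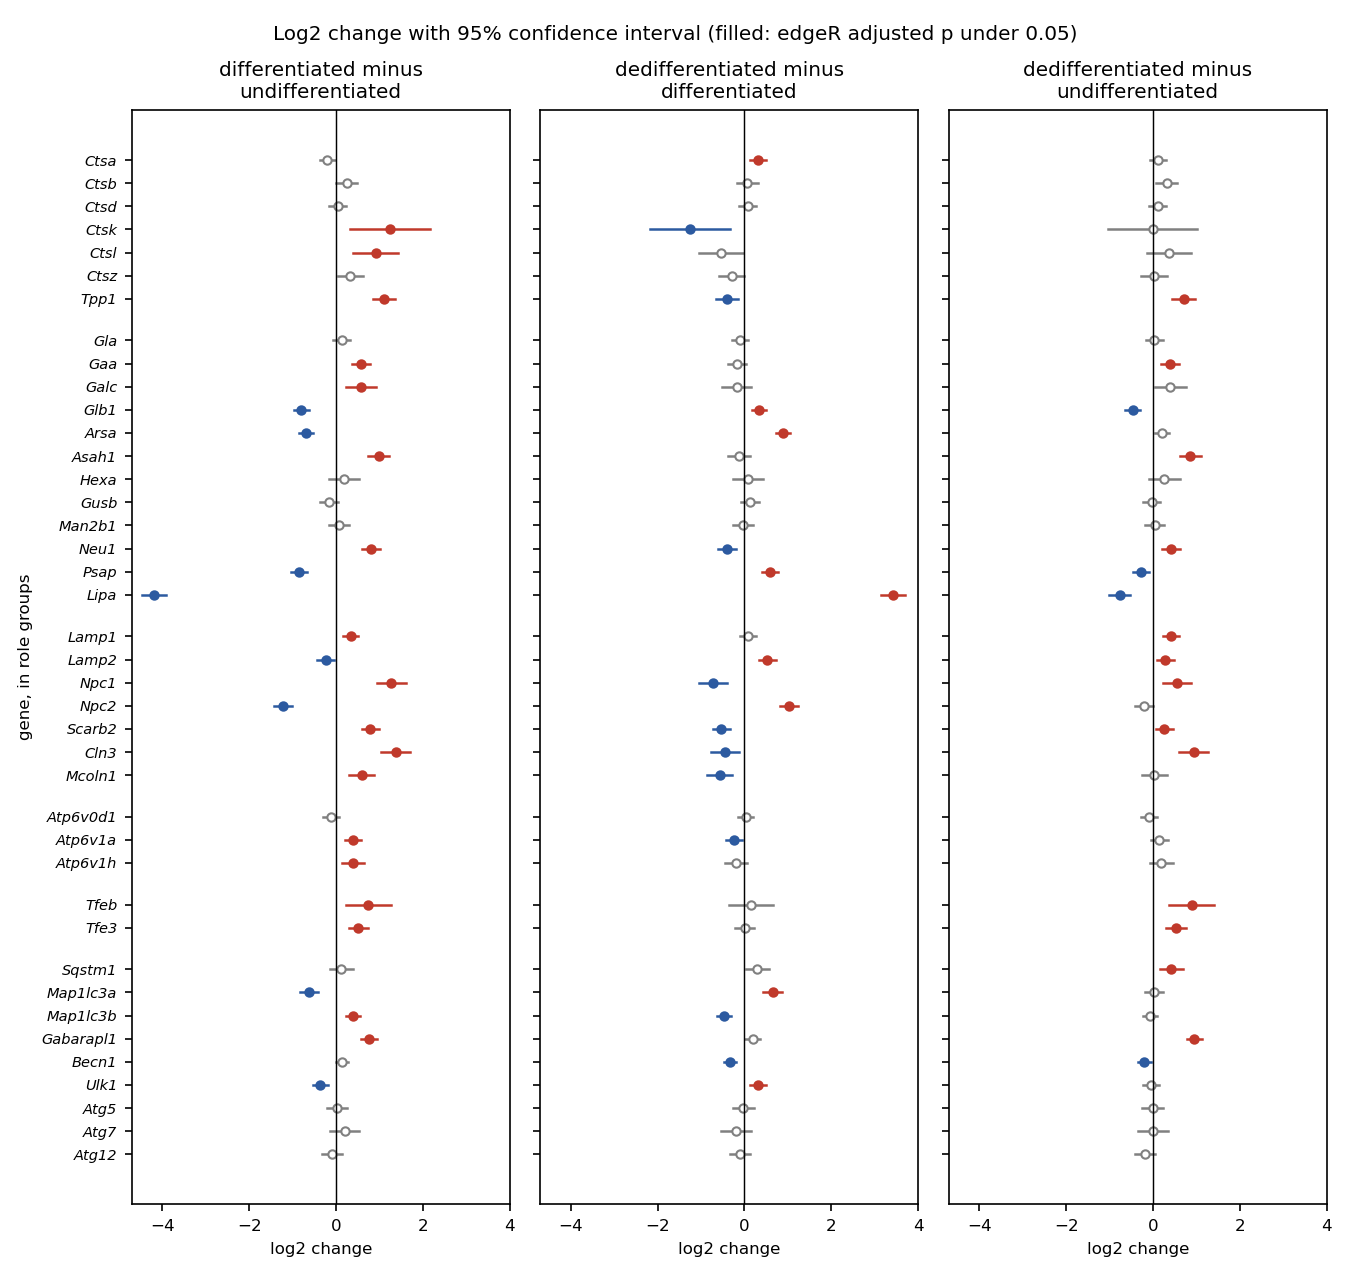
Log2 change (x axis) of the 40 tested members in the 3 comparisons, with 95% confidence intervals; filled points are called (red higher, blue lower), open points are not. Lipa lies at −4.18, 3.42 and −0.76 in the 3 panels, and most other members lie within 1 of zero.

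Among the proteases, Tpp1, Ctsl and Ctsk were called higher in differentiated cells, and Ctsa, Ctsb, Ctsd and Ctsz were not called. Tpp1, which removes tripeptides from the ends of proteins, stood at 77.4, 109 and 109 CPM in undifferentiated replicates 1 to 3, at 227, 208 and 228 CPM in differentiated cells and at 179, 154 and 166 CPM in dedifferentiated cells. The 3 stages did not overlap, with the highest level in differentiated cells. It rose by 1.11 (SE 0.119, edgeR adjusted p = 1.72e-05) at differentiation, then fell by 0.40 (adjusted p = 0.018), and remained 0.71 above undifferentiated cells (adjusted p = 0.00132). Ctsk, a cathepsin best known for degrading bone matrix, had few reads: 0.645, 1.63 and 0.654 CPM in undifferentiated cells, 2.73, 2.39 and 1.97 in differentiated cells and 1.19, 0.994 and 0.752 in dedifferentiated cells. Its groups did not overlap between undifferentiated and differentiated cells, where it rose by 1.25 (SE 0.416, edgeR adjusted p = 0.0237), nor between differentiated and dedifferentiated cells, where it fell by 1.26 (adjusted p = 0.0303). Ctsl, a cysteine protease, rose by 0.91 (SE 0.231, edgeR adjusted p = 0.00584), from 72.9 ± 25.9 CPM to 143 ± 9.85 CPM (SD, n = 3).

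The fall of Tpp1 on dedifferentiation was not called without differentiated replicate 1 or 3 or dedifferentiated replicate 2 or 3 (edgeR adjusted p 0.0514 to 0.0731 over those fits). The rise of Ctsk was not called without undifferentiated replicate 1 or 3 or differentiated replicate 1 or 2 (0.0534 to 0.0977), and its fall was not called without differentiated replicate 1 or 2 or dedifferentiated replicate 2 or 3 (0.0678 to 0.114). Ctsa, a carboxypeptidase that also protects 2 lysosomal glycosidases, stood at 571 ± 22.1, 520 ± 21.6 and 641 ± 25 CPM and rose by 0.31 from differentiated to dedifferentiated cells (edgeR adjusted p = 0.00848). Ctsb, Ctsd and Ctsz were not called in any comparison of this fit: Ctsd was at 1071 ± 71.1, 1146 ± 79.9 and 1195 ± 17.5 CPM, Ctsb at 382 ± 23.6, 474 ± 45.6 and 492 ± 70.6 CPM and Ctsz at 18.2 ± 0.676, 23.9 ± 4.11 and 19.2 ± 1.26 CPM. The 95% interval of the Ctsd change at differentiation ran from −0.16 to 0.23. Ctss, a cathepsin typical of macrophages and microglia, was the member left untested for low counts. It stood at 0.161, 0.192 and 0.262 CPM in undifferentiated cells, at 0.147, 0.0772 and 0.864 CPM in differentiated cells and at 0.17, 0.0994 and 0.0752 CPM in dedifferentiated cells, at or below the level of 3 counts in most libraries.

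The largest change of any member was that of Lipa, the acid lipase that frees cholesterol and fatty acids from cholesteryl esters and triglycerides. Lipa stood at 338, 446 and 458 CPM in undifferentiated cells, at 23.4, 24.6 and 23.3 CPM in differentiated cells and at 226, 252 and 277 CPM in dedifferentiated cells. The 3 stages did not overlap, and each differentiated library was below each other library by a wide margin. Lipa was 18.2-fold lower in differentiated cells (log2 change −4.18, SE 0.125, edgeR adjusted p = 2.97e-09) and rose 10.7-fold on dedifferentiation (3.42, SE 0.121, adjusted p = 3.06e-08). Dedifferentiated cells remained 0.76 below undifferentiated cells on the log2 scale (−0.76, adjusted p = 0.000434). Within the first sequencing project the log2 changes were −4.10, 3.33 and −0.77, all called, and the CPM ratios of the second project gave −4.30, 3.57 and −0.72.

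Of 6 members that act in sphingolipid breakdown, Asah1 and Galc rose at differentiation, Arsa and Psap fell, and Gla and Hexa were not called. The set is not complete: Glb1, which acts on ganglioside GM1, is given with the glycosidases and fell by 0.80. Of all tested genes 31.7% were called higher and 27.9% lower at differentiation. Asah1, acid ceramidase, stood at 191, 251 and 241 CPM in undifferentiated cells, at 524, 441 and 443 in differentiated cells and at 439, 406 and 436 in dedifferentiated cells. All of its undifferentiated values were below the others, while the 2 later stages came close without overlapping: it rose by 0.98 (SE 0.112, edgeR adjusted p = 2.49e-05) and dedifferentiated cells were 0.86 above undifferentiated cells (adjusted p = 0.000246), but the change of −0.12 between the later stages was not called (adjusted p = 0.38). Arsa, arylsulfatase A, which removes sulfate from the myelin lipid sulfatide, stood at 48.3, 48.9 and 49.1 CPM, then 30.7, 32.1 and 31.8, then 56.8, 58.4 and 59.3. Its replicates were tight and its stages did not overlap: it fell by 0.69 at differentiation (SE 0.0718, edgeR adjusted p = 1.32e-05) and rose by 0.90 on dedifferentiation (SE 0.0717, adjusted p = 4.94e-06), while its difference of 0.20 between dedifferentiated and undifferentiated cells was not called (adjusted p = 0.0507). Galc, the other enzyme of the main myelin galactolipids, rose by 0.58 at differentiation (adjusted p = 0.00819), from 13.9 ± 0.74 to 21.6 ± 4.62 CPM, and was at 18.9 ± 0.752 CPM in dedifferentiated cells, where neither change was called. Psap, the precursor of the saposins that present sphingolipids to these enzymes, fell by 0.86 (SE 0.0837, edgeR adjusted p = 8.43e-06), from 4332 ± 138 to 2497 ± 93.7 CPM, and rose by 0.58 to 3702 ± 84.8 CPM (adjusted p = 0.000269). It remained 0.27 below undifferentiated cells (−0.27, adjusted p = 0.0305). That last call was lost without any one of 5 libraries, all those of the comparison except dedifferentiated replicate 1 (adjusted p 0.0503 to 0.087), and with library size alone as the scale (0.0605).

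The glycosidases were divided as well. Neu1, the sialidase, rose by 0.81 at differentiation (edgeR adjusted p = 2.55e-05), from 31.6 ± 1.39 to 57.7 ± 4.4 CPM, and fell by 0.40 to 43.4 ± 2.19 CPM (adjusted p = 0.00478), still 0.41 above undifferentiated cells (adjusted p = 0.00744). Gaa, which degrades glycogen, rose by 0.57 (adjusted p = 0.000385), from 110 ± 8.76 to 170 ± 8.08 CPM, and was 0.40 above undifferentiated cells on dedifferentiation (adjusted p = 0.00866). Glb1, the beta-galactosidase of ganglioside GM1, fell by 0.80 (adjusted p = 7.64e-06), from 131 ± 4.13 to 78.9 ± 5.08 CPM. It rose by 0.33 afterwards to 98.6 ± 2.05 CPM (adjusted p = 0.00498), which was 0.46 below undifferentiated cells (−0.46, adjusted p = 0.0012). Ctsa, Neu1 and Glb1, whose proteins form a complex in the lysosome, thus had separate patterns, with Neu1 higher and Glb1 lower in differentiated cells. Ctsa was not called there (−0.20, edgeR adjusted p = 0.0545), although DESeq2 and 4 other of the 7 settings on all libraries called it lower. Gla, Hexa, Gusb and Man2b1, which remove sugar residues from glycolipids and glycans, were not called in any comparison of this fit, with log2 changes between −0.16 and 0.26.

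**Figure D4:**
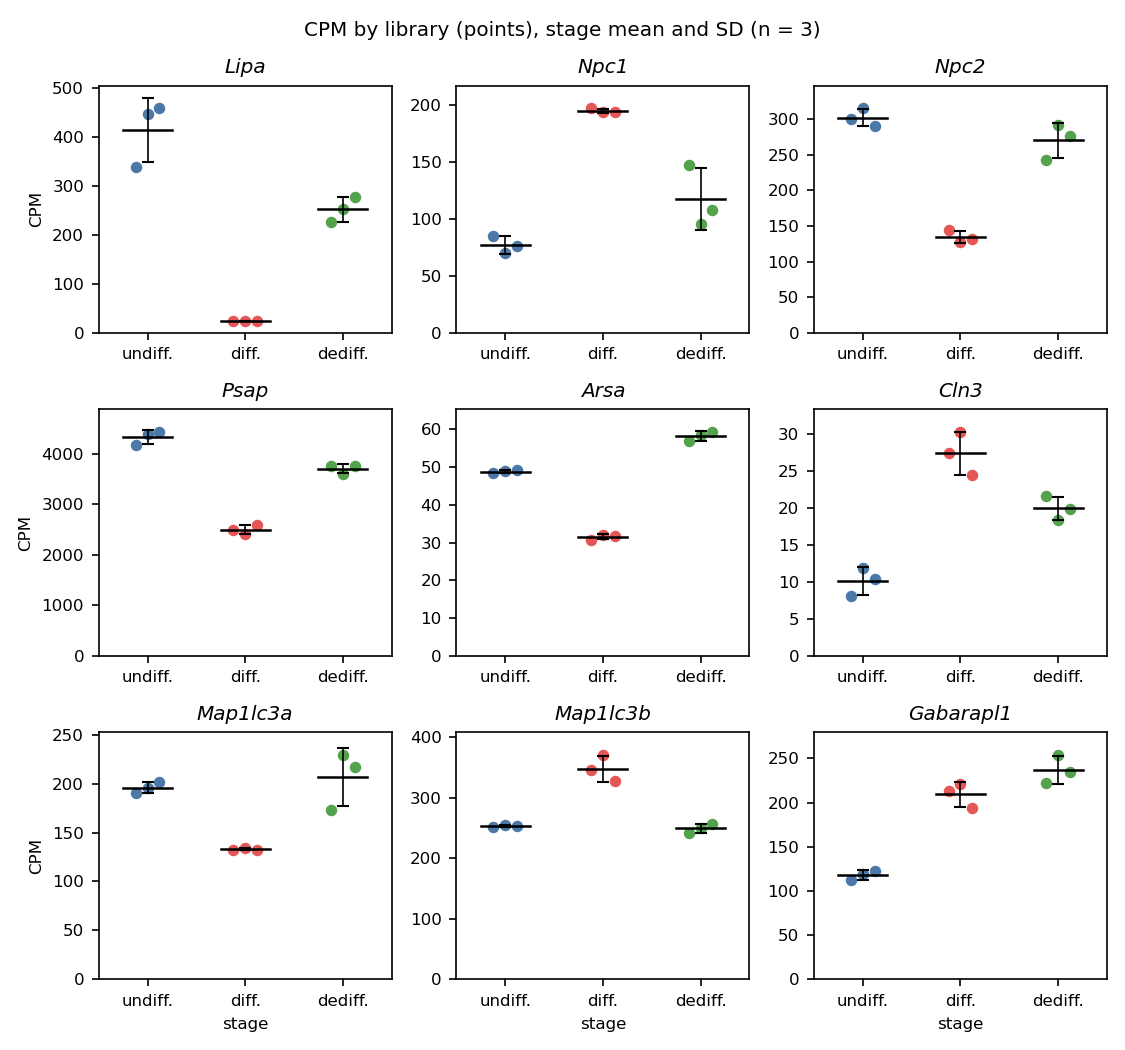
CPM (y axis, linear, from zero) of 9 members in the 3 stages; points are libraries, the long bar is the stage mean and the error bar the SD of 3 libraries. Lipa falls from 338 to 458 CPM to between 23.3 and 24.6 CPM and rises to 226 to 277 CPM, while Npc1 is high where Npc2 is low.

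All 7 membrane and lipid export members were called at differentiation, 5 higher and 2 lower, where 59.6% of all tested genes were called (31.7% higher and 27.9% lower). Npc1, the membrane protein that takes cholesterol out of the lysosome, stood at 85, 70 and 75.6 CPM in undifferentiated cells, at 197, 194 and 193 in differentiated cells and at 147, 95.2 and 108 in dedifferentiated cells. Its 3 stages did not overlap: it rose by 1.28 (SE 0.149, edgeR adjusted p = 3.11e-05) and fell by 0.72 (SE 0.147, adjusted p = 0.00242), and dedifferentiated cells were 0.55 above undifferentiated cells (adjusted p = 0.0175). Npc2, the soluble protein that hands cholesterol to Npc1, stood at 301, 315 and 291 CPM, then 144, 128 and 132, then 243, 291 and 277. It went the other way, falling by 1.23 (−1.23, SE 0.0934, edgeR adjusted p = 1.27e-06) and rising by 1.02 (SE 0.0931, adjusted p = 1.17e-05), with the differentiated libraries below all others. Dedifferentiated and undifferentiated values of Npc2 met near 291 CPM, and their difference of −0.21 was not called (adjusted p = 0.111).

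At differentiation, Cln3 had the largest rise of any lysosome member. It stood at 8.14, 11.8 and 10.3 CPM in undifferentiated cells, at 27.3, 30.3 and 24.4 in differentiated cells and at 21.5, 18.4 and 19.8 in dedifferentiated cells, with no overlap between stages. It rose by 1.38 (SE 0.15, edgeR adjusted p = 1.81e-05), fell by 0.44 (adjusted p = 0.0278) and stayed 0.94 above undifferentiated cells (SE 0.151, adjusted p = 0.00102). Scarb2, also called LIMP-2, which carries glucocerebrosidase to the lysosome, rose by 0.79 (adjusted p = 2.15e-05), from 85.7 ± 9.81 to 155 ± 11.1 CPM, and fell by 0.54 to 106 ± 5.68 CPM (adjusted p = 0.000632). Mcoln1 rose by 0.60 (adjusted p = 0.00237), from 40 ± 1.35 to 63.2 ± 5.31 CPM, and fell by 0.57 to 42.2 ± 7.78 CPM (adjusted p = 0.00479). Lamp1 and Lamp2, the paired membrane glycoproteins, are given side by side: Lamp1 rose by 0.34 at differentiation (adjusted p = 0.00469) and was 0.41 above undifferentiated cells after dedifferentiation (adjusted p = 0.00368), at 818 ± 56.9, 1076 ± 51.4 and 1124 ± 19.2 CPM. Lamp2 stood at 290 ± 31.4, 255 ± 9.96 and 366 ± 23.5 CPM and rose by 0.53 on dedifferentiation (adjusted p = 0.000682).

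Several smaller calls of this group lay close to the threshold, and leaving out 1 library ended them while the log2 change moved little. The fall of Lamp2 at differentiation (−0.24, edgeR adjusted p = 0.0344), in which the libraries of the stages overlapped, was lost without any one library of the comparison except undifferentiated replicate 1 (log2 changes of −0.26 to −0.20, adjusted p 0.0501 to 0.115) and with library size alone (0.116). Its excess of 0.29 in dedifferentiated over undifferentiated cells (adjusted p = 0.031) was lost without undifferentiated replicate 1 or 3 or dedifferentiated replicate 2 or 3 (0.22 to 0.29, adjusted p 0.0725 to 0.113) and under 3 other settings (0.0508 to 0.0538). That of Scarb2 (0.26, adjusted p = 0.0498) was lost without any one library except undifferentiated replicate 3 (0.19 to 0.27, adjusted p 0.0811 to 0.139) and under 6 of 7 other settings on all libraries (0.0554 to 0.0862). That of Npc1 was lost without undifferentiated replicate 2 or 3 (0.47 to 0.52, adjusted p 0.0589 to 0.0721). The later fall of Cln3 was lost without differentiated replicate 1 or 2 or dedifferentiated replicate 2 or 3 (−0.43 to −0.37, adjusted p 0.0644 to 0.0965).

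The V-ATPase, the proton pump that acidifies the lysosome, is represented by 3 subunits. Atp6v1a, the catalytic subunit of the cytosolic sector, stood at 123, 119 and 123 CPM in undifferentiated cells, at 175, 159 and 169 in differentiated cells and at 149, 126 and 144 in dedifferentiated cells. It rose by 0.40 (SE 0.0838, edgeR adjusted p = 0.00187) and fell by 0.25 (SE 0.0836, adjusted p = 0.0314) without overlap between the stages compared, but the fall was lost without differentiated replicate 1 or 3 or dedifferentiated replicate 2 or 3 (0.0653 to 0.128). Atp6v1h, a regulatory subunit, stood at 43, 33.6 and 39.8 CPM, then 58.6, 50 and 51.3, then 42.6, 44.9 and 50.8, and rose by 0.39 at differentiation (SE 0.118, adjusted p = 0.0144), a call lost without undifferentiated replicate 2 or differentiated replicate 1 (0.0577 to 0.0845). Atp6v0d1, of the membrane sector, was at 206 ± 7.83, 198 ± 12 and 201 ± 6.15 CPM and was not called. In dedifferentiated against undifferentiated cells 0 of the 3 subunits were called by edgeR, where 29.4% of all tested genes were called. Of the 3 subunits, 0 had an unadjusted p under 0.05 or were called by DESeq2.

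Both transcription factors were called higher in differentiated and in dedifferentiated cells than in undifferentiated cells. Of all tested genes, 31.7% and 16.1% were called higher in these comparisons. Tfe3 stood at 51.3, 43 and 49.8 CPM in undifferentiated cells, at 75.5, 75 and 64.9 in differentiated cells and at 65.7, 72.2 and 76.6 in dedifferentiated cells. The undifferentiated libraries were below all others, and the changes against them were 0.52 (SE 0.103, edgeR adjusted p = 0.00136) and 0.52 (SE 0.103, adjusted p = 0.00349). Tfeb stood at 8.62, 19.7 and 12.5 CPM, then 20.4, 27.2 and 23.3, then 27.2, 25 and 25.7. Its undifferentiated libraries were spread widely but did not reach the others, and the changes were 0.75 (SE 0.234, edgeR adjusted p = 0.0178) and 0.90 (SE 0.235, adjusted p = 0.0157). The call at differentiation was lost without undifferentiated replicate 3 or differentiated replicate 2 (0.0605 to 0.0647), and the later one without undifferentiated replicate 3 (0.0585). Between differentiated and dedifferentiated cells edgeR called 46.4% of all tested genes and 0 of the 2 factors (0 at an unadjusted p under 0.05, 0 by DESeq2). The changes there were 0.15 for Tfeb (95% interval −0.35 to 0.65) and 0.01 for Tfe3 (−0.22 to 0.23). These are messenger RNA levels and hold no measure of where the proteins were.

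**Figure D5:**
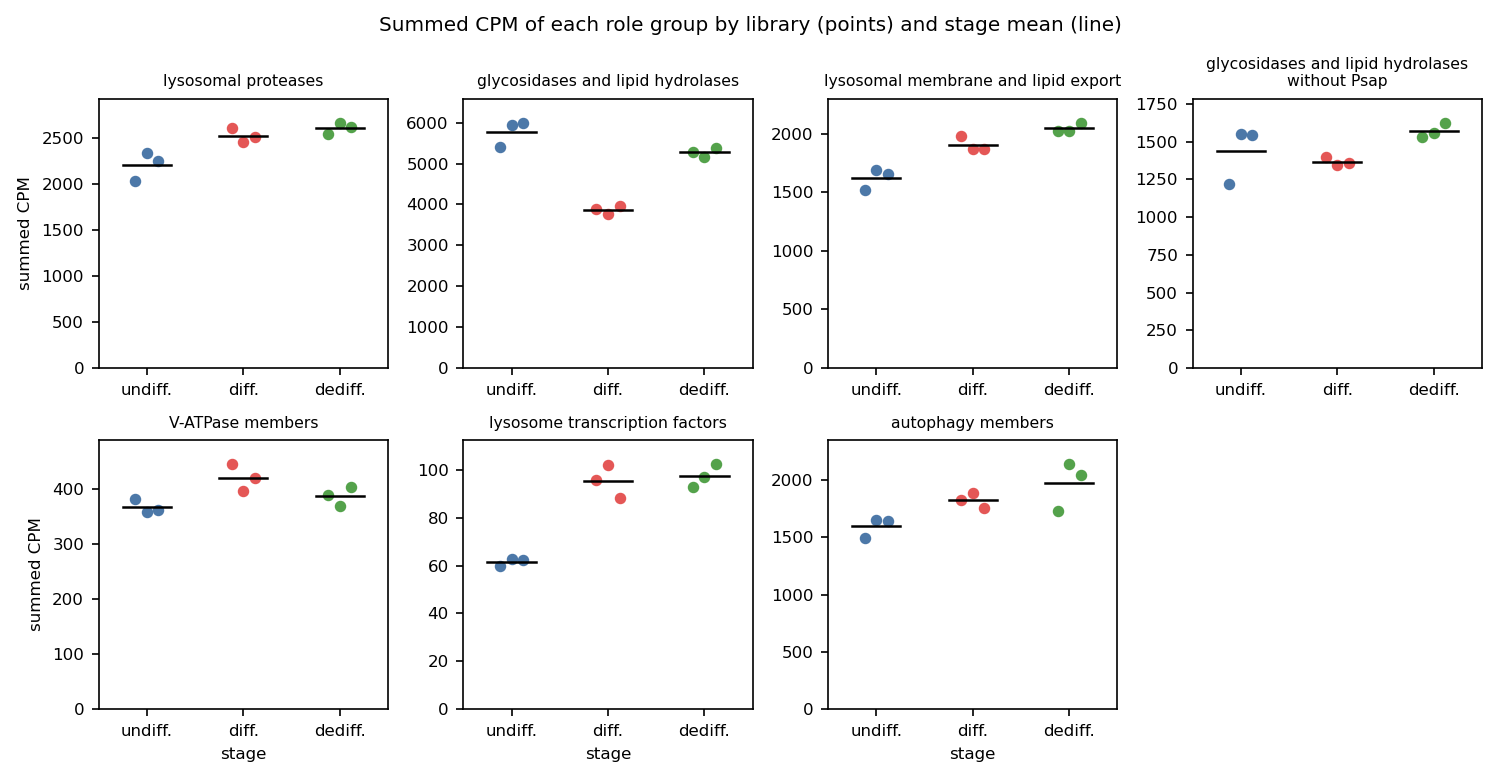
Summed CPM of each role group (y axis, linear, from zero; points are libraries, lines are stage means of 3 libraries). The sum of the glycosidases and lipid hydrolases is lowest in differentiated cells, and without Psap the stages of that group lie between 1218 and 1622 CPM.

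Summed over all 32 lysosome members, the reads came to 10035 ± 559 CPM in undifferentiated, 8815 ± 215 CPM in differentiated and 10412 ± 155 CPM in dedifferentiated cells. Psap alone made 36% of these reads and 70.6% of those of the glycosidases and lipid hydrolases, with which it is counted. Both shares also carry its transcript's length. Without Psap the lysosome sum was 5704 ± 427, 6317 ± 183 and 6709 ± 127 CPM, so that leaving out this 1 gene turned the direction between undifferentiated and differentiated cells. The proteases summed to 2215 ± 157, 2529 ± 73.2 and 2611 ± 59.7 CPM, and the membrane and lipid export members to 1622 ± 92.7, 1906 ± 62.9 and 2044 ± 37.6 CPM. The autophagy members summed to 1595 ± 90.4, 1824 ± 62.7 and 1970 ± 214 CPM, with Sqstm1 as the largest part (45.2% of the reads).

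The autophagy members that changed most were those of the Atg8 family, small proteins that are attached to the autophagosome membrane and bind cargo receptors. Gabarapl1 stood at 112, 119 and 123 CPM in undifferentiated cells, at 213, 221 and 194 in differentiated cells and at 222, 254 and 235 in dedifferentiated cells. Every undifferentiated library was far below the others: it rose by 0.76 (SE 0.0818, edgeR adjusted p = 1.62e-05) and was 0.95 above undifferentiated cells after dedifferentiation (SE 0.082, adjusted p = 1.47e-05). The change of 0.19 between the later stages was not called (adjusted p = 0.0764). Map1lc3b stood at 251, 254 and 253 CPM, then 346, 371 and 327, then 242, 249 and 256. Map1lc3a stood at 191, 196 and 202 CPM, then 132, 134 and 132, then 173, 230 and 217. The differentiated libraries of both were apart from all others, above for Map1lc3b and below for Map1lc3a. Map1lc3b rose by 0.40 (SE 0.0731, edgeR adjusted p = 0.000775) and fell by 0.47 (SE 0.0732, adjusted p = 0.00046), whereas Map1lc3a fell by 0.62 (−0.62, SE 0.0963, adjusted p = 0.000243) and rose by 0.65 (SE 0.0963, adjusted p = 0.000331). Dedifferentiated and undifferentiated cells differed by −0.07 in Map1lc3b (95% interval −0.23 to 0.09) and by 0.03 in Map1lc3a (−0.19 to 0.24), neither called.

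Among initiation genes, Ulk1, the kinase that starts autophagosome formation, fell by 0.36 at differentiation (edgeR adjusted p = 0.00321), from 87.8 ± 5.14 to 71.6 ± 3.49 CPM, and rose by 0.31 to 87.7 ± 3.06 CPM (adjusted p = 0.011). Becn1, a subunit of the lipid kinase complex that follows, was at 148 ± 5.6, 170 ± 1.83 and 134 ± 3.07 CPM and fell by 0.34 on dedifferentiation (adjusted p = 0.00167). Its difference of −0.20 from undifferentiated cells (adjusted p = 0.0421) was lost without any one of the 6 libraries (0.0507 to 0.111) and under 4 other settings (0.0563 to 0.126). Sqstm1, the cargo receptor p62, stood at 602, 754 and 715 CPM in undifferentiated cells, at 787, 813 and 757 in differentiated cells and at 778, 1075 and 1021 in dedifferentiated cells. Dedifferentiated replicate 1 was close to the differentiated level and its 2 fellow replicates were above it. Sqstm1 was 0.42 above undifferentiated cells (SE 0.123, edgeR adjusted p = 0.0252), a call lost without undifferentiated replicate 1 or 3 or dedifferentiated replicate 2 or 3 (0.0618 to 0.132). Atg5, Atg7 and Atg12, which form the machinery that conjugates the Atg8 proteins, were not called in any comparison. Their log2 changes lay between −0.20 and 0.20, and the interval of Atg7 ran from −0.54 to 0.14 in dedifferentiated against differentiated cells and from −0.34 to 0.34 against undifferentiated cells.

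Other genes of these pathways, on lists that overlap the members in no gene, were counted in the same fit. Over all tested genes, 31.7% were called higher and 27.9% lower at differentiation, and 23.2% higher and 23.2% lower on dedifferentiation. Within the first project alone, with 2 libraries a stage, 4358 of 10371 tested genes were called at differentiation, 2313 of them higher. On dedifferentiation 2606 were called there, 1360 of them higher. Of 25 tested further lysosomal enzymes and cofactors, 11 were called higher and 9 lower at differentiation, and 8 higher and 7 lower on dedifferentiation (44% and 36%, then 32% and 28%). In the first project alone the 8 became 5 and the 7 became 2. Ctsc, a peptidase that activates granule proteases, rose by 3.06 (edgeR adjusted p = 2.47e-06) and fell by 1.84 (adjusted p = 0.000133), with mean levels of 25, 217 and 59.9 CPM. Dnase2, which degrades DNA in the lysosome, rose by 1.37 (adjusted p = 6.02e-07), and Galns, a sulfatase of keratan sulfate, fell by 1.23 (adjusted p = 9.63e-06). Of 17 membrane and delivery genes, 9 were called higher and 3 lower at differentiation, and 2 higher and 4 lower afterwards (52.9% and 17.6%, then 11.8% and 23.5%). The 4 became 2 without differentiated replicate 1 or 2 or dedifferentiated replicate 2 or 3, and 1 in the first project alone. Ctns, the cystine exporter, rose by 1.93 (adjusted p = 5.7e-06). Igf2r, a receptor that delivers mannose 6-phosphate tagged enzymes, rose by 1.34 (adjusted p = 0.000474) and fell by 1.79 (adjusted p = 0.000127), and Litaf, an endosomal protein mutated in a Charcot-Marie-Tooth neuropathy, fell by 1.26 (adjusted p = 4.5e-07) and rose by 1.21 (adjusted p = 1.66e-06). Of 14 further V-ATPase genes, 8 were called higher and 2 lower at differentiation, and 4 higher and 5 lower on dedifferentiation (57.1% and 14.3%, then 28.6% and 35.7%). The 4 became 1 without dedifferentiated replicate 2, and edgeR called 0 without differentiated replicate 2 or 3 or dedifferentiated replicate 3. In the first project alone the 4 became 0, the 5 became 3 and the 2 lower at differentiation became 1.

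Of 37 further autophagy genes, 8 were called higher and 15 lower at differentiation, and 15 higher and 6 lower on dedifferentiation (21.6% and 40.5%, then 40.5% and 16.2%), with medians of −0.11 and 0.18 on the log2 scale beside 0.05 and −0.01 for all tested genes. The 6 became 3 without differentiated replicate 1 or 2 or dedifferentiated replicate 3. In the first project alone the 15 higher became 6, the 6 lower became 2 and the 8 higher at differentiation became 5. Optn, a cargo receptor, fell by 2.01 (edgeR adjusted p = 2.1e-08) and rose by 1.93 (adjusted p = 9.62e-08), at mean levels of 142, 36.6 and 138 CPM. Vmp1, a membrane protein needed for autophagosome formation, fell by 1.99 (adjusted p = 1.13e-07) and rose by 1.24 (adjusted p = 7.85e-06), at 243, 63.8 and 149 CPM. Tollip, an adaptor that binds ubiquitin, went the other way, up by 0.94 (adjusted p = 4.21e-06) and down by 0.62 (adjusted p = 0.000167). Of 20 genes of nutrient sensing and TFEB control, 4 were called higher and 4 lower at differentiation, and 9 higher and 1 lower on dedifferentiation (20% and 20%, then 45% and 5%). The 4 higher became 2 without undifferentiated replicate 3 or differentiated replicate 2, and the 1 lower was not called without differentiated replicate 2 or dedifferentiated replicate 2 or 3. In the first project alone the 4 higher became 1 and the 4 lower became 2. On dedifferentiation the 9 became 5 there and the 1 lower became 0. Tsc2, a brake on the mTORC1 kinase, fell by 1.34 (adjusted p = 9.32e-07) and rose by 0.81 (adjusted p = 7.69e-05), and Rragd, a GTPase of the lysosomal surface, rose by 2.13 on dedifferentiation (adjusted p = 5.44e-05). Of 10 genes of myelin clearance and lipid efflux, 3 were called higher and 6 lower at differentiation, and 3 higher and 2 lower afterwards (30% and 60%, then 30% and 20%). The later 3 became 1 without differentiated replicate 3 or dedifferentiated replicate 3. In the first project alone the later 3 also became 1, and the later 2 lower became 1. Axl, a receptor tyrosine kinase used in engulfing debris, fell by 2.43 (adjusted p = 8.51e-07) and rose by 2.10 (adjusted p = 6.11e-06). Mertk of the same list also fell at differentiation, by 0.97 (adjusted p = 0.00153). Megf10 of that list went the other way, up by 3.82 at differentiation (adjusted p = 0.000124). It was 2.86 above undifferentiated cells after dedifferentiation (adjusted p = 0.00222). Abca1, the cholesterol exporter of the cell surface, rose by 2.44 (adjusted p = 5.17e-07) and fell by 1.49 (adjusted p = 3.43e-05), at 150, 848 and 299 CPM.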

How the data were processed

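Messenger RNA of 9 cell libraries (3 stages, 3 replicates) was used; the vesicle tables hold none of these genes and were not used. As deposited, the table holds estimated counts of each gene, not always whole, from Salmon, the tool named in its file name and in the submitters' processing notes. Libraries came from 10 ng of total RNA with a directional kit, per the labels' protocols, and genome build, annotation and strand setting are not given in the sources used here. Of the values 1.15% were fractional and were rounded. Replicate numbers follow the sample titles, which differ from a suffix in the column names. The test was that of edgeR 4.0.16 (R 4.3.3): filterByExpr (minimum count 10), TMM scaling, quasi-likelihood fit of the 9 libraries without covariates, Benjamini-Hochberg adjustment over all 10372 tested genes, calls at adjusted p under 0.05. SE is the log2 change divided by the square root of F, and intervals are 95%. The fit was also run on simulated counts in which few genes changed, in differentiated cells alone. Many more were called in these data, so that run does not measure error rates here. CPM uses column totals. DESeq2 1.42.0 and other settings were alternatives. Values in every library are given, per role group and comparison, for the 2 called members with the largest change and no overlap, and of wider lists up to 3 genes a direction with the smallest p. The members and lists were chosen with earlier results of these data known. Promoter windows are from RefSeq (GRCr8).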

Additional observations from a re-analysis of the deposited data

How the results depend on the processing

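Of the 62 calls on members, 47 held in every fit that left out 1 library, and the 15 that did not are named in the report. Across the 7 alternatives on all libraries, each lost 1 to 3 of the 62 calls, and among calls the sign changed in 0 fits of edgeR or DESeq2. The replicate block (titles' numbers as a covariate) lost 2 calls, those of Scarb2 and Becn1 in dedifferentiated against undifferentiated cells, and added 6: Ctsa at differentiation (−0.20, edgeR adjusted p = 0.0432), Ctsb at differentiation (0.25, 0.0416) and against undifferentiated cells (0.31, 0.0318), Hexa against undifferentiated cells (0.28, 0.0364), and on dedifferentiation Ctsl (−0.58, 0.0135) and Sqstm1 (0.28, 0.0413). Deviations of same-numbered libraries correlated at 0.028 to 0.304 (7 of 9 over 0.1), and 8 of 9 libraries correlated best with their own number. The labels state no pairing, and for replicate 3 pairing cannot be told apart from the second sequencing project. Within the first sequencing project, an alternative added after seeing the data, 28 calls were lost with 2 libraries a stage. There 10 lysosome members were called higher at differentiation, 2 lower on dedifferentiation and 3 higher in dedifferentiated against undifferentiated cells. Of the 10371 genes tested there, 2313 were called higher at differentiation and 789 higher in dedifferentiated against undifferentiated cells. On dedifferentiation 2606 of all genes were called, 1360 of them higher. Autophagy members then split 1 higher and 1 lower on dedifferentiation, with a median of 0.07, and 1 higher against undifferentiated cells. The single autophagy call lower against undifferentiated cells became 0 with the replicate block, the project as a covariate, library size alone, no filter or the first project. The autophagy median at differentiation (0.13) was 0.19 with library size alone, 0.094 with DESeq2 size factors, 0.094 in DESeq2, 0.099 without a filter and 0.085 without the 10 most abundant genes. Its median against undifferentiated cells (−0.01) was 0.0402 with library size alone, −0.0400 with DESeq2 size factors, −0.0402 in DESeq2 and −0.0405 without the 10 most abundant genes. Leaving out 1 library, lysosome members called lower on dedifferentiation ranged from 4 to 8, autophagy members called higher from 2 to 4, those higher against undifferentiated cells from 1 to 2 and those lower from 0 to 1. The autophagy medians ranged from 0.054 to 0.15 at differentiation, from −0.061 to 0.063 on dedifferentiation and from −0.098 to −0.0010 against undifferentiated cells. With library size alone, 62.6% of calls between dedifferentiated and undifferentiated cells were higher, against 54.7% with TMM and 49% with DESeq2 size factors. The medians of all genes moved by at most 0.061. The causes were not tested.

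Sign changes were limited to values that were not called, most of them near 0. In dedifferentiated against undifferentiated cells, Gla became −0.00071 with DESeq2 size factors, −0.0029 in DESeq2 and −0.0011 without the 10 most abundant genes, Mcoln1 −0.0034, −0.0034 and −0.0041, Map1lc3a −0.0064, −0.0065 and −0.0062, and Atg7 −0.0300, −0.0315 and −0.0311 under the same settings and −0.018 without a filter. Map1lc3a was −0.0012 within the first project. Ctsk became 0.011 with the replicate block and 0.037 with library size alone, Gusb 0.018 with library size alone, and Atg5 0.0402 with library size alone and 0.048 within the first project. At differentiation, Ctsd became −0.0039 without the 10 most abundant genes, Atg12 0.0089 within the first project, and Atg5 −0.015 with DESeq2 size factors, −0.014 in DESeq2, −0.0097 without a filter, −0.024 without the 10 most abundant genes and −0.024 within the first project. On dedifferentiation, Tfe3 became −0.0056 with library size alone and −0.11 within the first project, and Atg5 0.073 within the first project. Without 1 library the ranges that crossed 0 were, against undifferentiated cells, −0.076 to 0.081 for Atg5, −0.099 to 0.13 for Atg7, −0.26 to 0.51 for Ctsk, −0.043 to 0.085 for Ctsz, −0.032 to 0.092 for Gla, −0.069 to 0.018 for Gusb, −0.081 to 0.089 for Man2b1, −0.087 to 0.12 for Map1lc3a, −0.16 to 0.11 for Mcoln1 and −0.098 to 0.019 for Ulk1. At differentiation they were −0.015 to 0.044 for Atg5, −0.033 to 0.0796 for Ctsd and −0.048 to 0.12 for Man2b1. On dedifferentiation they were −0.061 to 0.063 for Atg5, −0.021 to 0.084 for Atp6v0d1, −0.29 to 0.019 for Galc and −0.0704 to 0.0727 for Tfe3.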

Other observations

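Ratios of reads between members within a library, for pairs chosen after their values were seen, are given as descriptions without a test. Each carries the lengths of both transcripts, so only its change between stages can be read. Npc1 to Npc2 stood at 0.255 ± 0.0307, 1.45 ± 0.0791 and 0.441 ± 0.147 (SD, n = 3) in undifferentiated, differentiated and dedifferentiated cells, and the differentiated libraries did not overlap the others. Map1lc3b to Map1lc3a stood at 1.29 ± 0.031, 2.62 ± 0.147 and 1.22 ± 0.161. Lipa to Npc1, the enzyme that frees cholesterol and the protein that exports it, stood at 5.47 ± 1.3, 0.122 ± 0.00433 and 2.25 ± 0.624. Galc to Arsa, the enzymes of galactosylceramide and sulfatide, stood at 0.284 ± 0.0137, 0.687 ± 0.164 and 0.325 ± 0.0193, and Asah1 to Psap at 0.0525 ± 0.00596, 0.188 ± 0.0204 and 0.115 ± 0.00245.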
